A study of Zea mays with 29 samples.

Results

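The genes described here lay outside a block of gene identifiers taken to mark the long arm of chromosome 1 of maize (1L). Their transcripts were lower in leaves with more copies of that arm. They are 120 of the 40306 gene identifiers listed for the whole series. A gene was eligible when its identifier number lay outside the run from 2682 to 5868, the block of consecutive identifiers whose expression followed 1L copy number, and when it averaged at least 5 CPM (reads of a gene scaled to a common library total) in each of the 2 dosage series, which 12206 genes did. Of these, 470 had a log2 group mean CPM (0.5 added) lower by 0.5 or more both in tetrasomics than in diploids of series 1 and in trisomics than in monosomics of series 2, and the 120 whose weaker difference was largest were taken. They are numbered below by that rank. The block was found from expression, and its place on 1L is an inference, because the files pair no identifier with a chromosome, a name or a product, and 0 of the identifiers occurred in the RefSeq gene table used here. Roles and leaf markers could therefore not be assigned or checked.

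Changing the dose of one chromosome arm leaves the rest of the genome at its normal dose, a state called genomic imbalance. Genes on the varied arm tend to follow their copy number, which is a cis effect. Genes elsewhere can change too, which is a trans effect, and in plants and flies a common form is the inverse dosage effect, in which a transcript goes down as the varied arm goes up and goes up as it goes down. Regulators that work in complexes are commonly proposed as its source, since their products depend on relative and not absolute amounts.

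Poly(A) RNA from leaf was sequenced in 27 libraries that the series design calls biological replicates, and the spread between them is all that the p-values below measure. In series 1, plants with an otherwise diploid genome had 2 copies of 1L (diploid, 4 libraries), 3 (trisomic, 5 libraries) or 4 (tetrasomic, 3 libraries). Plants with an otherwise haploid genome had 2 copies (disomic haploid, 2 libraries) or 1 (haploid, 3 libraries). In series 2 the genome was otherwise diploid, with 1 copy of 1L (monosomic, 4 libraries), 2 (diploid, 3 libraries) or 3 (trisomic, 3 libraries). The sources used here give no strain, no plant age and no account of how copies were gained or lost. Series 1 libraries held 13199571 to 18923160 counted reads, and those of series 2 held 14115560 to 19860440. Haploid and disomic haploid libraries entered neither difference of the rule, but they did enter the CPM minimum of series 1. With that minimum taken over diploids, trisomics and tetrasomics alone, 115 of the 120 members still reached it, and those of ranks 3, 48, 56, 68 and 72 did not. Results of the comparison between disomic haploids and haploids are therefore also given for 120 members chosen again with that minimum, from 12158 eligible genes, a choice in which no haploid or disomic haploid library took part. Fewer cells of a type and less RNA per cell cannot be told apart in whole leaf tissue.

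The values that chose the members are given as a description only. The log2 difference of tetrasomics from diploids ran from -5.22 to -0.83 with a median of -1.16 over the members, and that of trisomics from monosomics from -3.59 to -0.83 with a median of -1.29. Over the 12086 eligible genes that were no member, the medians were 0.05 and -0.17. The limit of the set was not a natural gap. The last 3 members had weaker differences of -0.834, -0.834 and -0.834, and the first 3 genes left out had -0.833, -0.833 and -0.830.

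**Figure D1:**
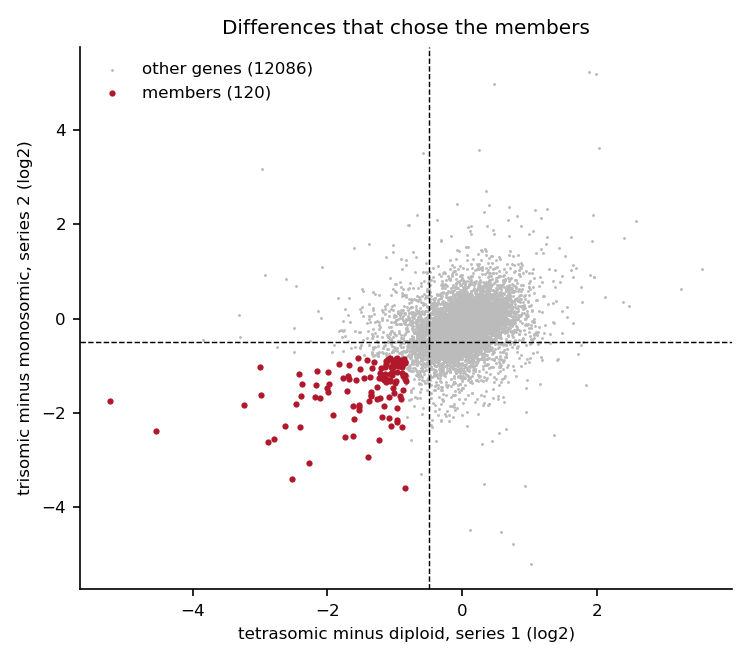
Each point is 1 eligible gene, with its log2 difference of tetrasomics from diploids in series 1 on the x axis and of trisomics from monosomics in series 2 on the y axis. Dashed lines mark the limits of -0.5, and the 120 members in red occupy the lower left corner down to -5.22 and -3.59, with no gap between them and the nearest grey points.

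In disomic haploids the members were lower than in haploids. The group mean was lower in disomic haploids for 120 of 120 members, whereas it was lower for 49.6% of the other eligible genes. The median edgeR log2 fold change of the members was -1.59, a level of 0.333 of that in haploids, against -0.03 over all 22435 genes tested and -0.08 over the 20534 tested genes outside the block. The quartiles over the members were -2.38 and -0.94, and the median standard error of a member was 0.64. Without haploid replicate 2 the median was -1.07. All 120 members passed the filter on low counts. Of the 120 members chosen again without haploid libraries, the group mean of 120 was lower in disomic haploids, against 49.5% of the other eligible genes, and the median log2 fold change was -1.59.

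By edgeR's quasi-likelihood test with Benjamini-Hochberg adjustment over all tested genes, 23 of the 120 members, or 19.2%, fell in disomic haploids and 0 rose. Among all genes tested, 2.08% were called lower and 4.66% higher in this comparison, and among all eligible genes 2.31 and 1.43%. At an unadjusted p below 0.05, 74 members were lower and 0 higher, against 11.5 and 11.2% of all genes tested. The 23 calls had folds between 0.0300 and 0.458 with a median of 0.235. They were spread over the ranking, with 8 in ranks 1 to 40, 7 in ranks 41 to 80 and 8 in ranks 81 to 120. DESeq2 called 55 members lower and 0 higher, against 5.23 and 5.74% of all genes with an adjusted p there. Among the members chosen again without haploid libraries edgeR called 23 lower and 0 higher, against 2.29% lower among the 12158 genes eligible then. The edgeR count of members moved with single libraries. Calls over all genes moved with some of these libraries, but stayed near 2.08% lower without haploid replicate 2 or haploid replicate 3. The count of members was 14 (11.7%) without haploid replicate 1, against 1.2% of all genes tested in that fit. It was 14 (11.7%) without haploid replicate 2, against 2.14%. Without haploid replicate 3 it was 32 (26.7%), against 2.3%. It was 2 (1.67%) without disomic haploid replicate 1, against 0.229% of all genes, and 13 (10.8%) without disomic haploid replicate 2, against 1.14%. Without diploid replicate 1 it was 38 (31.7%), against 3.41%. In a fit of the haploid and disomic haploid libraries alone 0 genes of any kind were called in edgeR, with 69 of the 118 members tested there, all lower, among the 3997 genes at an unadjusted p below 0.05.

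In 68 of the 120 members both disomic haploid libraries lay below all 3 haploid libraries, or 56.7%. Among all genes tested the share was 15.8%, and among all eligible genes 17.4%. Both disomic haploid libraries were low over the members as a whole. Disomic haploid replicate 1 was below haploid replicates 1, 2 and 3 in 108, 116 and 98 members, and disomic haploid replicate 2 in 110, 114 and 93. The median differences from haploid replicate 3 were -0.77 and -0.62 (log2), the smallest of the 6, and those from haploid replicate 2 were -2.19 and -1.84, the largest. The share of other genes was not counted for each pair of libraries. Relative to the diploid mean, the other eligible genes had medians of 0.20 and 0.01 (log2) in disomic haploid replicates 1 and 2. In haploid replicates 1 to 3 these medians were 0.05, 0.16 and 0.0006.

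**Figure D2:**
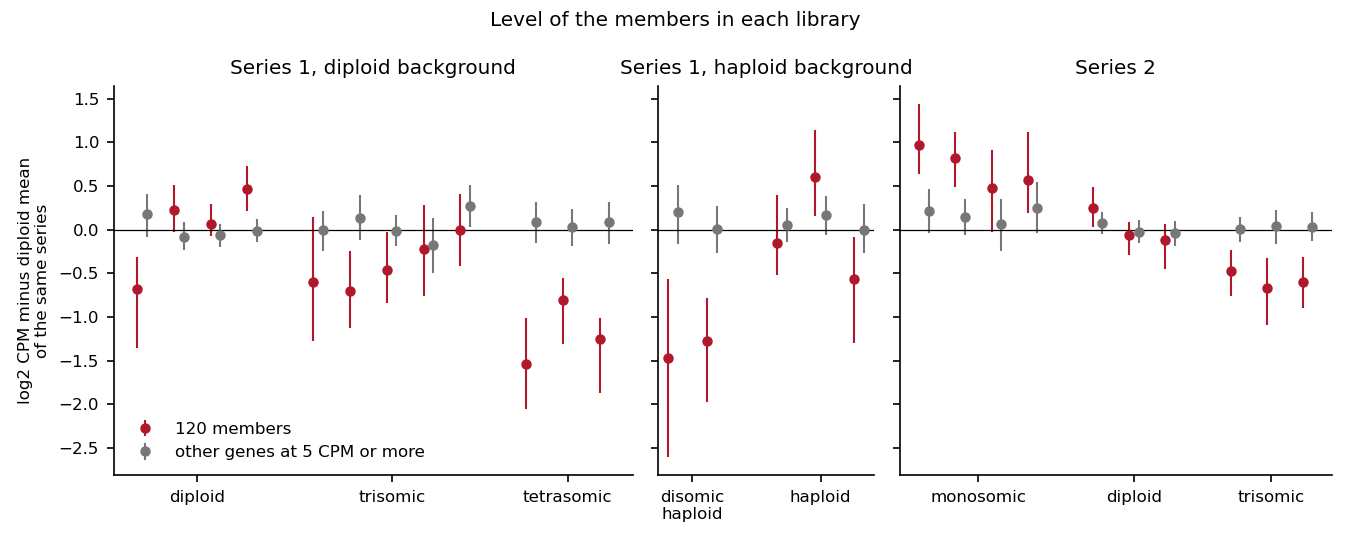
Each red point is the median over the 120 members of log2 CPM (0.5 added) in 1 library minus the diploid mean of its series, each grey point the same over the 12086 other eligible genes, and bars span the quartiles over genes. Red medians lie at -1.47 and -1.27 in disomic haploids and at -0.15, 0.61 and -0.57 in haploids, and are lower in tetrasomics than in diploids. In the 4 monosomic libraries red medians run from 0.47 to 0.97, and grey medians are also above 0 there, from 0.06 to 0.25. Over all libraries grey medians stay between -0.17 and 0.27.

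The transcripts of 2 members show how such falls looked in single libraries. Zm00004b024960, of rank 15, had the lowest fold change among the members that were called. It stood at 3.62 and 2.81 CPM in disomic haploids, against 115, 143 and 52.7 CPM in haploids. The groups were far apart, and the edgeR log2 fold change was -5.06 with an SE of 1.08, at an adjusted p of 0.0106. In the diploid background it had 71.5, 127, 69.6 and 92.3 CPM in diploids, 1.68, 52.7, 25.2, 49.9 and 95.5 CPM in trisomics and 13.8, 26.0 and 10.6 CPM in tetrasomics. Trisomic replicate 1 thus lay below every tetrasomic library, and trisomic replicate 5 within the diploid range. In series 2 it had 309, 219, 149.8 and 392 CPM in monosomics, 120.1, 109 and 131 CPM in diploids and 71.1, 98.2 and 86.6 CPM in trisomics, 3 groups that did not overlap.

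Zm00004b033374, of rank 37, had the next lowest fold change among the calls. It stood at 0.835 and 0.778 CPM in disomic haploids, against 7.48, 9.66 and 6.63 CPM in haploids. The edgeR log2 fold change was -3.34 with an SE of 0.53, at an adjusted p of 0.0016. The disomic haploid values rest on 28 reads in all. In the diploid background it had 11.9, 17.0, 10.7 and 10.1 CPM in diploids, 2.31, 7.19, 8.91, 7.27 and 6.89 CPM in trisomics and 3.03, 6.29 and 3.35 CPM in tetrasomics. All trisomic and tetrasomic libraries lay below all diploid ones, and trisomics and tetrasomics overlapped. In series 2 it had 26.9, 19.5, 16.6 and 26.2 CPM in monosomics, 9.46, 9.67 and 15.4 CPM in diploids and 7.53, 10.3 and 9.16 CPM in trisomics, of which diploids and trisomics overlapped.

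The members least different in the haploid background did not pass the test. Zm00004b008334, of rank 80, had 28.6 and 21.5 CPM in disomic haploids, against 25.8, 29.1 and 21.5 CPM in haploids, a log2 fold change of -0.09 with a 95% confidence interval from -0.54 to 0.37. Yet it had 33.0, 48.7, 31.4 and 37.7 CPM in diploids, 20.9, 25.6, 27.0, 21.7 and 31.8 CPM in trisomics and 16.0, 20.5 and 20.6 CPM in tetrasomics. Its haploid libraries thus lay below all its series 1 diploids. Zm00004b031879, of rank 97, had 15.6 and 36.0 CPM in disomic haploids, against 16.8, 29.8 and 32.9 CPM in haploids, with an interval from -0.84 to 0.74 around -0.05. In series 2 it had 112, 42.0, 27.0 and 116 CPM in monosomics and 35.8, 45.3 and 37.3 CPM in trisomics, groups that overlapped.

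Among the members of the highest ranks, libraries of 1 group differed widely. The first of them had 0.946 and 12.7 CPM in disomic haploids, against 47.3, 25.4 and 13.6 CPM in haploids, groups that came close to each other but did not overlap. Its edgeR adjusted p was 0.447. It had 5.61, 51.0, 19.6 and 23.5 CPM in diploids, 64.8, 0.423, 6.59, 22.8 and 10.6 CPM in trisomics and 0.662, 6.40 and 1.76 CPM in tetrasomics, so that the highest and the lowest of these 12 libraries were both trisomic. The second had 3.62 and 0.419 CPM in disomic haploids, against 45.2, 89.7 and 6.52 CPM in haploids, with an edgeR adjusted p of 0.0645. Haploid replicate 3, at 6.52 CPM, was the nearest to the disomic haploids.

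The next 4 members differed in the level that haploids had. The member of rank 3 had 1.45 and 1.02 CPM in disomic haploids, against 15.4, 39.2 and 1.14 CPM in haploids, where replicate 3 fell between the disomic haploid values. The member of rank 4 had 1 read over both disomic haploid libraries, against 9.16, 25.1 and 1.31 CPM or 621 reads in haploids. That of rank 5 had 0.334 and 70.3 CPM in disomic haploids, against 59.3, 147 and 124 CPM in haploids. For this member the 2 disomic haploid libraries thus did not resemble each other. That of rank 6 was near 0 in both groups, with 2 reads in disomic haploids and 14 in haploids, while diploids had 26.0, 22.3, 25.1 and 58.3 CPM. None of these 4 was called in disomic haploids, with edgeR adjusted p-values of 0.0503, 0.0769, 0.4997 and 0.628.

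**Figure D3:**
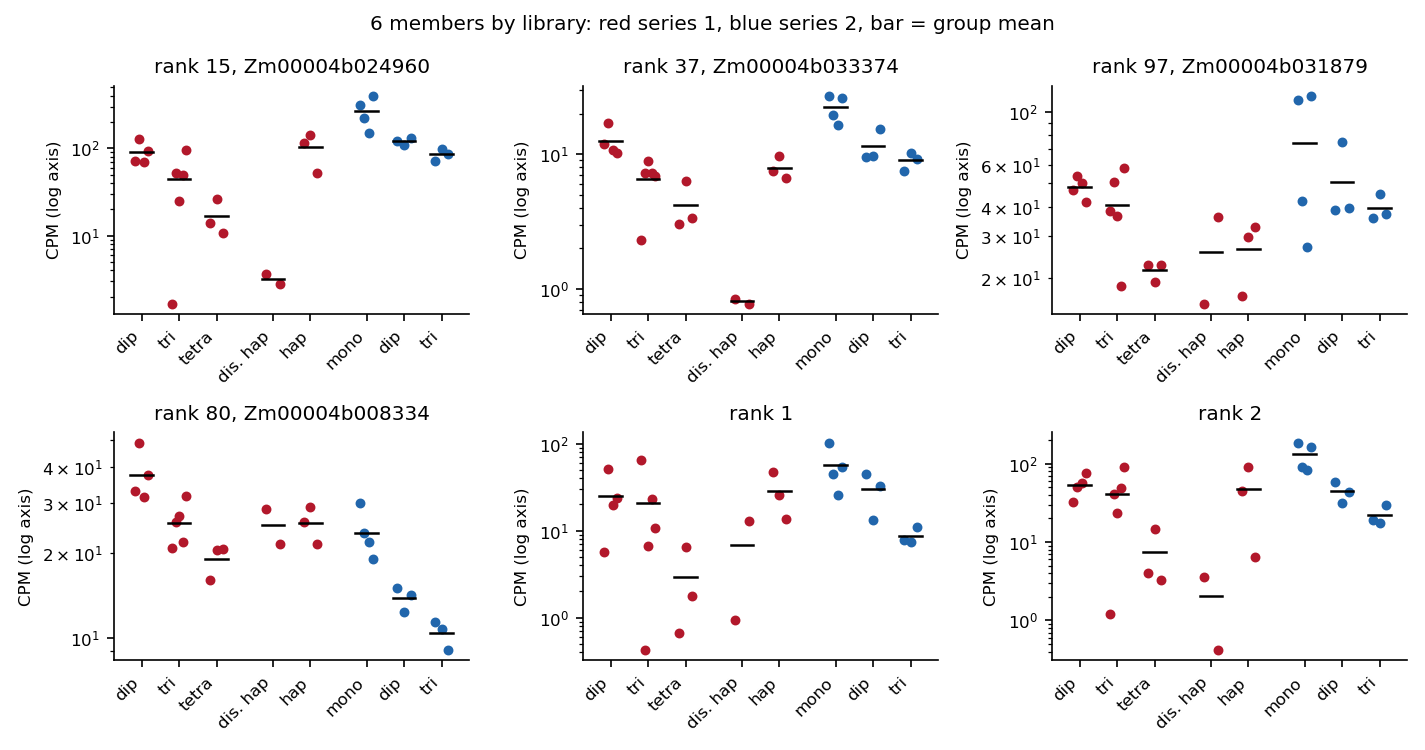
CPM of 6 members in all 27 libraries on log axes, with a point per library and a bar at each group mean (series 1 red, series 2 blue; dip, diploid; tri, trisomic; tetra, tetrasomic; dis. hap, disomic haploid; hap, haploid; mono, monosomic). The members of ranks 15 and 37 have disomic haploid points far under the haploid points (3.62 and 2.81 against 115, 143 and 52.7 CPM for rank 15), those of ranks 97 and 80 have overlapping points, and those of ranks 1 and 2 scatter widely among trisomics.

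A doubled relative dose of 1L was set against its reciprocal, a level of 0.5 or a log2 fold change of -1. Of the members, 84 (70.0%) had an edgeR log2 fold change of -1 or lower in disomic haploids. By group mean 81 members (67.5%) were at -1 or lower, against 4.19% of the other eligible genes. Among all 12206 eligible genes the 95% confidence interval lay wholly below -1 for 68, held -1 but not 0 for 1151, held both for 1722, and held 0 but not -1 for 8140. The corresponding counts of members were 17, 57, 43 and 3. With intervals this wide most members could not be told from the reciprocal of the dose, and 43 could be told neither from it nor from no change.

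The difference in the haploid background was larger for members with larger differences in the libraries of the rule. The median edgeR log2 fold change in disomic haploids was -2.39 for ranks 1 to 40, -1.41 for ranks 41 to 80 and -1.23 for ranks 81 to 120. It was -0.78 for the 350 genes that met both limits but were not taken, with 92.0% of them lower by group mean. Spread between haploid libraries fell along the same classes. As a median SD of log2 CPM it was 0.86 for ranks 1 to 40, 0.84 for ranks 41 to 80 and 0.56 for ranks 81 to 120. For the 350 genes not taken it was 0.38. The part that this spread has in the order of the fold changes was not tested. Across the 120 members, as a description, the disomic haploid fold change and the tetrasomic difference had a Pearson r of 0.59 (Spearman rho 0.50), and the disomic haploid fold change and the series 2 difference 0.28 (rho 0.28). These comparisons share no library, but those of series 1 share the series.

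Meeting the limit in one series only gave unlike results. The 529 genes lower in tetrasomics of series 1 but not past the limit in series 2 had a median log2 fold change of -0.90 in disomic haploids, and 96.6% were lower. The 1589 genes past the limit in series 2 only had a median of -0.04, and 48.3% were lower, close to the -0.02 and 45.6% of the 9618 genes past neither limit. Calls followed the same order, with 11.9% of the first class called lower, 1.38% of the second and 1.31% of the genes past neither, against 20.0, 17.5 and 20.0% in the same 3 ranges of ranks. Groups did not overlap, with disomic haploids lower, in 60.3% of the first class, 16.0% of the second and 13.3% past neither. Among the members this share was 56.7%, so it was not higher than in the first class. The fall in the haploid background thus went with the series 1 difference, and no member was chosen by that difference alone. Spread between haploid libraries was also largest in the first class. As a median SD of log2 CPM it was 0.48 there, 0.28 in the second class and 0.23 past neither limit. The part of this spread in the fall was not tested.

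**Figure D4:**
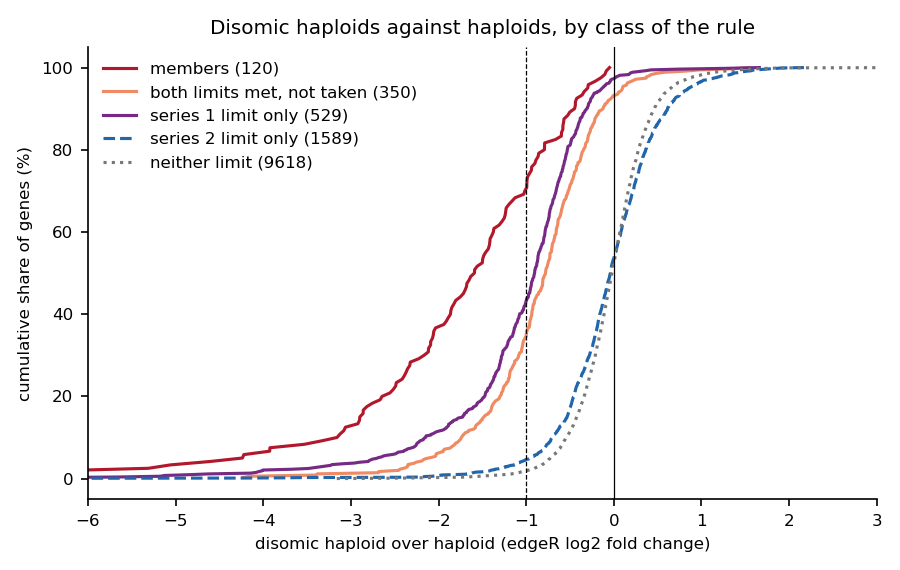
Cumulative share of genes in percent against the edgeR log2 fold change of disomic haploids over haploids, for the members and for 4 other classes of eligible genes, with lines at 0 and -1. The members lie farthest to the left (median -1.59; 2 members lie below the axis limit of -6), genes past the series 1 limit only reach a median of -0.90, and genes past the series 2 limit only (-0.04) run beside those past neither (-0.02).

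The groups that complete each dose series lay mostly between those of the rule, which they share libraries with, so that no test is read from them. The trisomic mean of series 1 was between the diploid and the tetrasomic mean in 98 of 120 members and at or above the diploid mean in 22. The diploid mean of series 2 was between the monosomic and the trisomic mean in 113 members, at or above the monosomic mean in 2 and at or below the trisomic mean in 5. Of the 12086 other eligible genes, 2201 had means falling in order of dose in series 1 and 4422 in series 2. Those genes were not chosen for a gap between the outer groups, as the members were, so the counts are not alike. The median edgeR log2 fold change of the members from diploids was -0.58 in series 1 trisomics, -0.71 in series 2 trisomics and 0.64 in monosomics, and it was -1.39 in tetrasomics and -1.23 for trisomics over monosomics, the comparisons that chose the members. On this scale the reciprocal of the relative dose is -0.58 in trisomics and 1.00 in monosomics, against diploids.

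As a share of all counted reads, the members took 0.309 and 0.364% in disomic haploids, against 0.687, 1.11 and 0.506% in haploids. In series 1 the share was 0.730 ± 0.174% (SD) in the 4 diploids, 0.569 ± 0.0798% (SD) in the 5 trisomics and 0.321 ± 0.0671% (SD) in the 3 tetrasomics. In series 2 it was 1.38 ± 0.224% (SD) in the 4 monosomics, 0.804 ± 0.137% (SD) in the 3 diploids and 0.501 ± 0.0486% (SD) in the 3 trisomics. Of the members, 11 averaged under 1 CPM in disomic haploids, against 1 in haploids, and 3 averaged under 1 CPM in tetrasomics, against 0 in diploids.

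The following comparisons use the diploids and tetrasomics that chose the members, so that their values are a description from which nothing is read. In haploids, which have 1L in balance, the group mean of 63 members (52.5%) was lower and that of 57 higher than in series 1 diploids, against 39.3% lower among the other eligible genes. By edgeR log2 fold change, 73 members were lower in haploids and 47 higher, with a median of -0.22 and quartiles of -0.57 and 0.29. The group mean of disomic haploids was lower than that of tetrasomics, which have the same relative dose of 1L, in 67 members and higher in 53, against 45.1% lower among the other eligible genes. The effect of disomy in haploids minus that of tetrasomy in diploids, as edgeR log2 fold changes, had a median of -0.07 over the members.

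The members varied more between libraries of one group than other genes did. The median SD of log2 CPM was 0.80 over the members and 0.24 over the other eligible genes among haploids, and 0.47 and 0.20 between the disomic haploids. Among series 2 diploids it was 0.42 and 0.21. These 3 groups entered the CPM minimum but neither difference of the rule. Over the members the median biological coefficient of variation in the series 1 fit was 0.454, against 0.207 over all eligible genes. That fit includes the diploids and tetrasomics that chose the members, so this value is a description only. Across members, a larger SD among haploids went with a lower disomic haploid fold change (Pearson r = -0.64, Spearman rho = -0.49, n = 120; the measures share the haploid libraries). The part that this spread has in the fall was not tested.

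Within groups, some libraries were low or high over most members at once. Diploid replicate 1 of series 1 had the lowest diploid value in 93 of 120 members and a median of -0.68 relative to the diploid mean, against 0.22, 0.07 and 0.46 in replicates 2 to 4. Over other eligible genes it was lowest in 21.7%. Haploid replicate 3 was the lowest haploid in 87 members and haploid replicate 2 the highest in 90. Among the other eligible genes these shares were 44.96 and 50.17%. Tetrasomic replicate 2 was the highest tetrasomic in 85 members, against 26.54% of the other eligible genes. Diploid replicate 1 and haploid replicate 3 thus stood on the side of the tetrasomics and disomic haploids without extra copies of 1L by their labels, while staying above the tetrasomic and disomic haploid medians, which ran from -1.54 to -0.80. Members chosen without diploid replicate 1 shared 105 of the 120, and 120 of them had a negative fold change in disomic haploids, with a median of -1.42. 

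The members had shorter gene models than other genes. The length implied by the deposited counts and RPKM values (reads scaled by gene length and library total) had a median of 2561 bp over the members and 4539 bp over the other eligible genes, with 34.2 and 16.4% under 2000 bp and 24.2 and 44.1% of 5000 bp or more. Levels per length had medians, in series 1, of 6.06 RPKM over the members and 4.99 over the others, and 9.85 and 5.34 in series 2. Neither length nor level went with the size of the fall, with Spearman rho of 0.08 and 0.03 across the 120 members. In identifier order the members were scattered. Of them 11 (9.17%) lay before the block and 109 after it, close to the 8.10% of eligible genes before it, and the nearest was 407 identifiers from its edge. Only 2 members had consecutive identifiers.

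**Figure D5:**
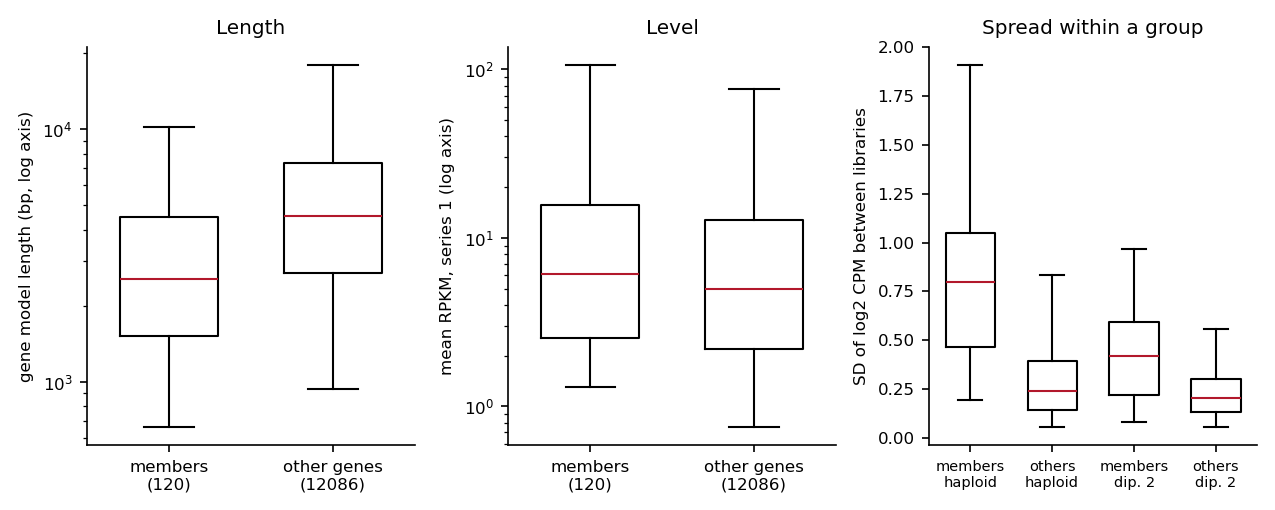
Boxes show quartiles with the median in red and whiskers from the 5th to the 95th percentile for members and other eligible genes, as gene model length in bp, mean RPKM in series 1 (both on log axes) and the SD of log2 CPM between haploid libraries and between series 2 diploid libraries (dip. 2). Members are shorter (median 2561 against 4539 bp) and more variable (0.80 against 0.24 among haploids), with similar RPKM (6.06 against 4.99).

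The mirror rule, genes higher by 0.5 or more in both differences, found 161 genes, against 470 that were lower. Both counts depend on scaling by library totals. On that scale the eligible genes that were no member had medians of 0.05 and -0.17 in the 2 differences. With TMM scaling outside the block 407 genes met both fall limits, and the 120 taken then shared 97 with the members. The rise count with that scaling was not taken. Of the 120 strongest rising genes, 102 (85.0%) had a higher group mean in disomic haploids than in haploids, against 50.4% of the eligible genes that were no member of the falling set. Their median edgeR log2 fold change was 0.64.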

How the data were processed

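The authors deposited 2 tables of raw counts per gene model, 1 per series, and 2 RPKM tables. Per the submitters' processing notes Bowtie, TopHat, Cufflinks and Cuffdiff were used. Their versions and roles, and the build, are not given in these sources. The deposited RPKM values equalled counts scaled by 1 length per gene and the table total (100% of values within 0.1%), which gave the gene lengths. A DNA table was not used here. CPM was computed from each table total.

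Counts of each series were fitted as a whole with edgeR 4.0.16 in R 4.3.3, using TMM scaling, filterByExpr and robust two-sided quasi-likelihood F-tests. That test gives no standard error. Each SE was the size of the log2 fold change divided by the square root of its F statistic. The 95% confidence intervals used this SE and a t quantile, so both are approximations. A gene was called where its p, adjusted by Benjamini-Hochberg over all genes tested, was below 0.05. Calls in comparisons that share libraries with the rule are not given. DESeq2 1.42.0, limma 3.58.1, other scalings, filters, libraries and choices of members were alternatives. At most 2 called members of lowest and 2 of highest fold change in disomic haploids are given by identifier, since the identifiers carry no names. With 0 members called higher, the second pair were those of highest fold change without a call. The members and lists were chosen with earlier results of these data known. Gene lists and markers could not be used without names. Totals of 13199571 to 19860440 reads make 1 CPM about 13 to 20 reads, and reads without molecular identifiers are not independent molecules.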

Additional observations from a re-analysis of the deposited data

Results flagged for a closer look

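Among the groups of 4 or 5 libraries checked for the members described by library, 1 value stood apart from the rest of its group by Dixon's criterion. The member of rank 6 had 58.3 CPM in diploid replicate 4 of series 1, against 26.0, 22.3 and 25.1 CPM in diploid replicates 1 to 3. The gap was 0.898 of the range. The 36 checks also covered the median and the share of reads of all members in each library. By chance the criterion nominally flags about 1 in 20. Applied to log2 CPM of the other eligible genes it flagged 8.56% in series 1 diploids, 6.66% in series 1 trisomics and 4.58% in monosomics. The member of rank 6 was near 0 in both haploid groups.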

How the results depend on the processing

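The fold change of the members in disomic haploids kept its sign as a median under every alternative run. The number of members with a negative fold change was 119 with the replicate number as a block, 118 of 118 tested with haploid and disomic haploid libraries alone, and from 114 to 120 when a library was left out. Called members numbered 55 with DESeq2, 0 with haploid and disomic haploid libraries alone, 10 of 60 members and 40 of 240, and from 2 to 38 when a library was left out: 14 without haploid replicate 1, 14 without haploid replicate 2, 2 without disomic haploid replicate 1, 13 without disomic haploid replicate 2 and 38 without diploid replicate 1. Without a disomic haploid library the remaining library was taken to vary as in the other groups. Without haploid replicate 3, 32 members were called, and with the replicate block 24. The libraries left out in turn were those of haploids and disomic haploids, and diploid replicate 1 of series 1. Same-numbered libraries of different groups had a median r of -0.019 between their deviations, from -0.339 to 0.334 over 27 pairs. Pairs of unlike number had a median of -0.012, from -0.455 to 0.466 over 86 pairs. The numbers thus gave no sign of pairing, but correlations in groups this small cannot exclude it. Called members stayed between 19 and 24 with limma-trend, TMM outside the block (median -1.54), library totals only, no filter and 4 other choices of members. The median log2 fold change ranged from -2.0 to -1.07 when a library was left out, with -1.07 without haploid replicate 2. Members with groups that did not overlap numbered from 70 (58.3%) to 98 (81.7%) then, counts that can only rise with fewer libraries, while the share of all eligible genes ran from 20.5 to 34.5%. With the CPM minimum of series 1 taken outside haploids, an alternative chosen after seeing the data, 23 members were called, the median was -1.59 and 70 did not overlap. The cause was not tested, beyond the fewer libraries and members of some settings.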
